A study of Mus musculus with 39 samples.

Results

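Dorsal root ganglia of female C57 mice taken 6 days after paclitaxel were compared with those taken 2 days after it. The comparison uses 6 of the 39 RNA-seq libraries of the series, 3 from day 6 and 3 from day 2, chosen by their names and all carrying the same mark of 1 library set. Females aged 8 to 12 weeks had been given 2 intraperitoneal injections of paclitaxel (PTX, 3 mg/kg, 1 day apart), and days were counted from the last injection. Both ends of the comparison are therefore treated animals, and it reads the course of expression after treatment and not treatment itself. Ganglia of the lumbar levels L3 to L5 from both sides were used. The same change in 6 libraries of treated males (2 and 6 days, same dose) and the level in 3 libraries of females given vehicle and sampled 1 day later are set beside it. The labels do not say that replicates came from separate animals, so every p-value measures only the spread between these libraries, which may be technical.

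Dorsal root ganglia hold the cell bodies of the sensory neurons of the body, which report touch, heat, itch and pain. Satellite glia wrap these cell bodies, Schwann cells wrap their axons, and resident macrophages sit among them. Paclitaxel stabilizes microtubules, the tracks along which cargo moves between a sensory neuron's cell body and its distant endings, and a painful neuropathy is one of its main side effects. Sensory neurons set their excitability with voltage-gated sodium, potassium and calcium channels, and release glutamate and peptides in the spinal cord.

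Gene reads per library ran from 19049166 to 23761469 in the 6 libraries, and between 17222 and 17475 of the 22609 listed genes were detected with 1 read or more. The tissue label matched its markers. Levels are given as CPM, the reads of a gene in 1000000 gene reads after scaling between libraries. Advillin (Avil), a marker of sensory neurons, ran from 948 to 1224 CPM, and Mbp, a protein of myelin, from 6281 to 7504 CPM. Xist lay between 184 and 276 CPM, and 4 Y-linked genes had no reads, as the female label requires.

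Muscle, central glia and fat were present in unequal amounts between libraries of the same day. The summed level of 18 skeletal muscle markers was 667, 640 and 12380 CPM in day 2 replicates 1 to 3 and 288, 6342 and 932 CPM in day 6 replicates 1 to 3, so that 1 library of each day stood far above the rest. None of the 18 markers was at 0 in all 6 libraries. For 12 markers of central glia the sums were 3.26, 70.4 and 4.51 CPM on day 2 and 4.21, 4.05 and 8.43 CPM on day 6. Day 2 replicate 2 alone held much of this signal, with 1005 reads of the oligodendrocyte gene Mobp against at most 74 in the other libraries. For 11 fat markers the day 2 sums of 203, 37.7 and 169 CPM enclosed the day 6 sums of 91.1, 78.9 and 99.1 CPM. Vehicle libraries held 258 to 670 CPM of muscle, 10.8 to 13.5 CPM of central glia and 95.2 to 146 CPM of fat markers. Bone and cartilage genes differed by day, with sums over 18 genes of 108.3, 107 and 134.5 CPM on day 2, all above the 97.15, 94.95 and 97.14 CPM of day 6, and 94.77 to 110 CPM in vehicle. Of the 12 tested, 11 had a log2 change below 0, with a median of -0.43 and no call, 2 of the 18 (Matn1 and Mepe) were at 0 reads in all 6 libraries, and the part of this content in the results was not tested. The part of muscle, central glia and fat content in the results below is given where a value could be had, with these sums as covariates or without the libraries concerned.

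**Figure D1:**
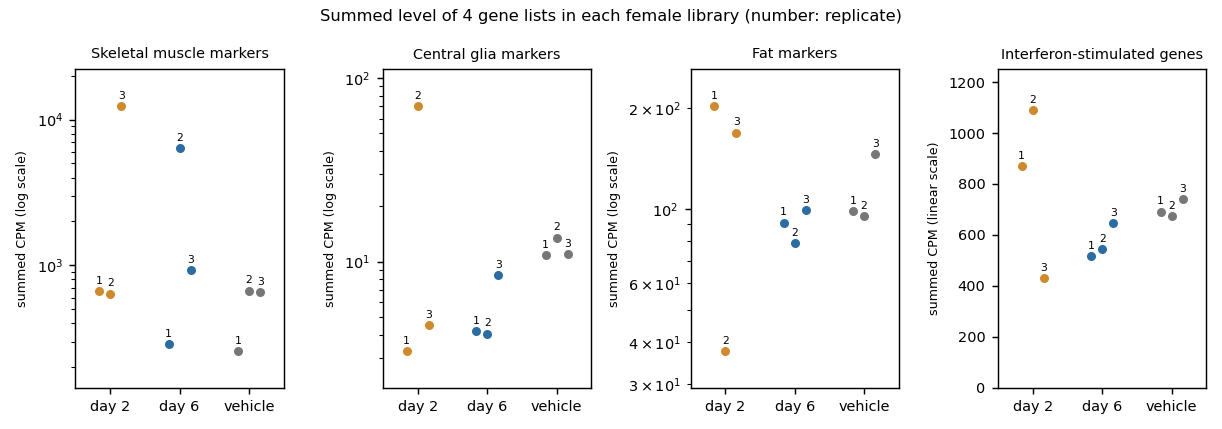
Summed level in CPM of skeletal muscle, central glia and fat markers (log axes) and of interferon-stimulated genes (linear axis from 0) in each female library, with 1 point per library and its replicate number above it. Day 2 replicate 3 and day 6 replicate 2 carry the most muscle signal, day 2 replicate 2 carries the most central glia signal, and the interferon-stimulated sums of day 2 lie on both sides of those of day 6.

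Between day 2 and day 6 few genes passed the test. Of 15577 genes tested, 28 (0.180%) had an adjusted p under 0.05, 11 higher on day 6 (0.0706%) and 17 lower (0.109%). The rises were small, with log2 changes from 0.32 to 0.62, and the falls ran from -0.33 to -1.59. In all 28 genes the 3 libraries of day 6 lay entirely on one side of the 3 libraries of day 2. The same held for 10.6% of all genes tested (5.35% higher on day 6 and 5.29% lower). The 28 were chosen for their change in these same libraries, so nothing is read from their count. Without adjustment, 2075 genes (13.3%) had a p under 0.05, 1329 of them higher on day 6. The median change over all genes was -0.0016, and 49.4% of genes had a change above 0. The synaptic genes Cacng2 and Gabra2 and the nucleolar gene Esf1 were among the calls that held under the most settings. Among the rises were Mrgprd and Plxnc1, which are 2 of 37 listed nociceptor and touch markers.

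How many genes passed depended on single libraries. Leaving out day 6 replicate 3 gave 951 genes (744 higher), leaving out day 6 replicate 2 gave 4, and leaving out day 2 replicate 1 gave 13. Without day 2 replicate 2 there were 84, without day 2 replicate 3 there were 97, and without day 6 replicate 1 there were 24, of which 1 was higher. Fitted on the 6 libraries alone, without the spread of the other 9 ganglion libraries, 0 genes passed. In that fit 978 had an unadjusted p under 0.05. Replicates of those 9 libraries differed less from each other than replicates of the 6 did, so the shared spread may be too small for the 6. DESeq2 on all 15 libraries called 232 (1.49%), including 27 of the 28. All 28 genes kept their direction under each of 17 alternative settings. They were chosen for their change in these same libraries, so the kept direction is given only as a description.

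**Figure D2:**
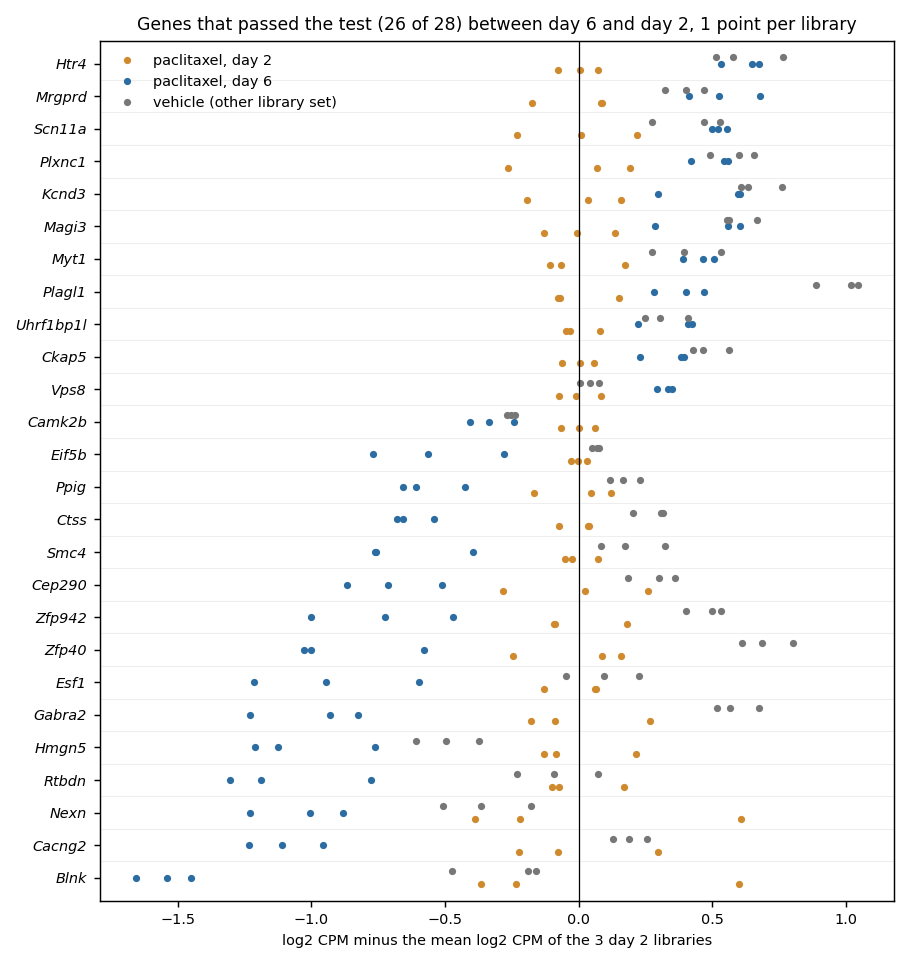
Level of 26 of the 28 genes that passed the test, as log2 CPM minus the mean log2 CPM of the 3 day 2 libraries, with 1 point per library for day 2, day 6 and vehicle. Day 6 points lie wholly to one side of day 2 points in every gene, and vehicle points of most genes that were lower on day 6 lie near or above those of day 2.

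Synaptic genes gave the falls with the lowest adjusted p. Cacng2 (also called stargazin), an auxiliary subunit that brings AMPA-type glutamate receptors to the synapse, measured 14.8, 19.1 and 13.3 CPM on day 2 and 8.02, 6.62 and 7.20 CPM on day 6. Every day 6 library lay below every day 2 library, and the log2 change was -1.11 ± 0.13 (SE, adjusted p = 0.00705). Gabra2, the alpha-2 subunit of the GABA-A receptor chloride channel, fell by 1.00 ± 0.13 on the log2 scale (adjusted p = 0.00812), from 10.3, 13.1 and 9.66 CPM to 6.16, 5.73 and 4.65 CPM, with no overlap between days.

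Cacng2, Gabra2 and Esf1 passed under 16 of the 17 alternatives, the exception being the fit on the 6 libraries alone. Without both muscle-rich libraries (day 2 replicate 3 and day 6 replicate 2, chosen after seeing the data) the log2 changes were -1.16 for Cacng2 and -1.12 for Gabra2, with adjusted p of 0.00475 and 0.00938. Camk2b, the beta subunit of a calcium/calmodulin-dependent kinase of synapses, was called at a smaller change of -0.33 ± 0.061 (adjusted p = 0.0485), with 112, 118 and 123 CPM on day 2 and 88.6, 93.1 and 99.4 CPM on day 6. That call held under 2 of 17 alternatives. Exons of Cacng2 overlap the gene A730060N03Rik on the opposite strand in the annotation. The strand setting of the counting is not given in the sources used here, so reads of such partners cannot be told apart.

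The other falls are given by gene, since no list groups most of them. Esf1, whose counterpart in the yeast Saccharomyces cerevisiae is needed to process ribosomal RNA, measured 30.2, 30.3 and 26.4 CPM on day 2 and 19.1, 12.4 and 15.0 CPM on day 6 (log2 change -0.90 ± 0.13, adjusted p = 0.0120). Eif5b, the initiation factor that joins the ribosomal subunits, fell from 98.1, 102 and 100 CPM to 82.4, 58.8 and 67.8 CPM (-0.52 ± 0.091, adjusted p = 0.0428), a call that held under 9 of 17 alternatives. The day 2 libraries were nearly level in both genes, and the day 6 libraries were spread below them. Ppig, a cyclophilin of the nucleus that works with splicing factors, measured 65.2, 68.7 and 56.4 CPM and then 47.0, 40.1 and 41.4 CPM (-0.57 ± 0.074, adjusted p = 0.00822). Smc4, a core subunit of the condensin complex that folds chromosomes, went from 35.8, 33.5 and 32.9 CPM to 25.9, 20.2 and 20.1 CPM (-0.63 ± 0.097, adjusted p = 0.0229). In both, day 6 replicate 1 was the highest of its day and still below every day 2 library.

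Hmgn5, a nucleosome-binding protein that loosens chromatin, lay at 5.54, 5.71 and 7.03 CPM and then at 3.57, 2.62 and 2.78 CPM (-1.02 ± 0.15, adjusted p = 0.0200). Cep290, a protein of the centrosome and of the base of the cilium, fell by 0.71 ± 0.13 on the log2 scale (adjusted p = 0.0485), from 9.23, 10.9 and 7.45 CPM to 6.36, 5.53 and 4.97 CPM, and its call also held under 9 of 17 alternatives. The zinc finger genes Zfp40 and Zfp942 fell as well. Zfp40 went from 26.9, 25.6 and 20.4 CPM to 16.2, 12.1 and 11.8 CPM (-0.87 ± 0.12, adjusted p = 0.0120), and Zfp942 from 10.9, 13.1 and 10.9 CPM to 8.36, 7.01 and 5.79 CPM (-0.72 ± 0.12, adjusted p = 0.0253). Both belong to a large family of similar genes, and a 50-base read can match several of them. Reads not placed uniquely were tallied apart from the genes, so part of the reads of Zfp40 and Zfp942 may be missing. Their levels are therefore uncertain. Of 339 genes with such a Zfp name, 149 were lower on day 6 and the median change was 0.02. Eif5b and Cep290 overlap opposite-strand genes in the annotation, Rev1 and 4930430F08Rik.

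Transcripts of the genes that fell were rich in A. The longest protein-coding transcript of each gene held a median of 32.4% A among the 17 falls, against 25.2% over the 15404 tested genes with a transcript sequence and 26.3% among the 11 rises. Of the 17 falls, 11 (64.7%) were in the decile of genes with the most A (above 30.0%), and 1 of the 11 rises was. The most A-rich 90 bases of the coding sequence are printed here for 4 of the falls in which they stand out. They are also printed for Mrgprd, the rise with the fewest A in this stretch. Sequences are from GENCODE vM21 on the GRCm38 build, 5′ to 3′ on the coding strand, with every A in capitals.
Eif5b, chr1:38021599-38021688, plus strand, 58 A: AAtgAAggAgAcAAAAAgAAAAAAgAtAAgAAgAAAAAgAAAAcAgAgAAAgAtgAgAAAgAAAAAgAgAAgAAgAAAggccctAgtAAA
Esf1, chr2:140168052-140168141, minus strand, 57 A: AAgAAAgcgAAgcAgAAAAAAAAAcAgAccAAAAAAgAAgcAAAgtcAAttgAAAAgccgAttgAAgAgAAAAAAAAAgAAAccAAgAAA
Ppig, chr2:69741603-69741692, plus strand, 56 A: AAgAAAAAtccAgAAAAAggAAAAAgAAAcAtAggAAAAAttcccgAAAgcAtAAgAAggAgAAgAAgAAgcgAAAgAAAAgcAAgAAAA
Smc4, chr3:69031444-69031533, plus strand, 52 A: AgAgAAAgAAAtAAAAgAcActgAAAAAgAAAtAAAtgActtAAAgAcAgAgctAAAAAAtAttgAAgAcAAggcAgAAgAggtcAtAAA
Mrgprd (rise), chr7:145321643-145321732, plus strand, 29 A: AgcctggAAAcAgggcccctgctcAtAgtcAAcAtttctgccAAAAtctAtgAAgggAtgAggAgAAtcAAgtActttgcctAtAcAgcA

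Across all falls this richest window held 27 to 58 A with a median of 41, and across all rises 29 to 42 with a median of 40. The decile of genes with the most A moved little as a whole. Their median change was 0.014, and 99 were higher and 117 lower at an unadjusted p under 0.05. The part of A content in the falls was not tested. After each library was corrected for its dependence on transcript GC content and length (an alternative chosen after seeing the data), 16 of the 17 falls still passed, all but Camk2b.

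Ctss, the lysosomal protease cathepsin S of macrophages, was 20.4, 22.0 and 22.0 CPM and then 14.8, 13.6 and 13.4 CPM (-0.62 ± 0.091, adjusted p = 0.0164). Blnk, an adaptor of B cell receptor signalling, lay near the detection limit at 1.59, 1.45 and 2.83 CPM and then 0.68, 0.64 and 0.59 CPM (-1.59 ± 0.29, adjusted p = 0.0485), and its call held under 6 of 17 alternatives.

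Nexn encodes nexilin, an actin-binding protein of the muscle Z-disc. Its level was 30.1, 26.8 and 53.4 CPM on day 2 and 17.4, 19.0 and 15.0 CPM on day 6 (-1.10 ± 0.20, adjusted p = 0.0485). On both days the muscle-rich library was the highest, by a wide margin on day 2 and a small one on day 6. Without both muscle-rich libraries the log2 change of Nexn was -0.82 (adjusted p = 0.0193). Rtbdn, a riboflavin-binding protein known from the retina, fell by 1.07 ± 0.18 on the log2 scale (adjusted p = 0.0253), from 3.05, 3.10 and 3.67 CPM to 1.91, 1.43 and 1.32 CPM. In these bulk samples, fewer cells of a type and less RNA per cell cannot be told apart.

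Of the 11 rises, Mrgprd and Plxnc1 belong to the list of nociceptor and touch receptor markers, and Scn11a and Kcnd3 to channel lists. Mrgprd, a G-protein-coupled receptor that defines a class of non-peptidergic nociceptors of the skin, measured 98.0, 117 and 118 CPM on day 2 and 147, 159 and 177 CPM on day 6 (log2 change 0.54 ± 0.092, adjusted p = 0.0350). Scn11a, the sodium channel Nav1.9 of nociceptors, was 412, 477 and 350 CPM and then 579, 603 and 588 CPM (0.51 ± 0.092, adjusted p = 0.0485). The day 6 libraries of Scn11a were nearly level, while day 2 replicate 3 was the lowest of all 6. Plxnc1, the receptor of semaphorin 7A and a marker of non-peptidergic neurons, went from 193, 210 and 153 CPM to 271, 268 and 246 CPM (0.50 ± 0.089, adjusted p = 0.0485). Htr4, a serotonin receptor that couples to cyclic AMP, rose by the largest amount among the 11, from 6.39, 6.71 and 6.04 CPM to 10.2, 9.98 and 9.21 CPM (0.62 ± 0.10, adjusted p = 0.0253). Kcnd3, the A-type potassium channel Kv4.3, was 94.2, 102 and 80.4 CPM and then 139, 140 and 113 CPM (0.50 ± 0.092, adjusted p = 0.0485). Its day 6 replicate 3 lay nearest to day 2.

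The calls of Mrgprd, Htr4, Scn11a, Plxnc1 and Kcnd3 held under 12, 10, 8, 8 and 7 of 17 alternatives. Ckap5, which adds tubulin to the growing ends of microtubules, rose from 181, 188 and 173 CPM to 237, 235 and 211 CPM (0.34 ± 0.055, adjusted p = 0.0253). Magi3, a scaffold protein of cell junctions, went from 161, 178 and 148 CPM to 238, 246 and 197 CPM (0.49 ± 0.079, adjusted p = 0.0253). In both, day 6 replicate 3 again lay nearest to day 2. Myt1, a zinc finger regulator of neural development, went from 39.0, 46.1 and 37.8 CPM to 56.3, 53.5 and 58.0 CPM (0.45 ± 0.076, adjusted p = 0.0350). Plagl1, an imprinted zinc finger regulator, rose from 37.7, 43.9 and 37.5 CPM to 52.3, 54.7 and 48.1 CPM (0.38 ± 0.069, adjusted p = 0.0485). Vps8, a subunit of the CORVET complex of early endosomes, rose from 49.2, 52.5 and 47.1 CPM to 62.5, 63.2 and 60.8 CPM (0.32 ± 0.059, adjusted p = 0.0485). Uhrf1bp1l went from 85.1, 92.0 and 84.1 CPM to 116, 117 and 101 CPM (0.35 ± 0.064, adjusted p = 0.0485). None of the 3 overlapped between days, and their calls held under 7, 4 and 5 of 17 alternatives. Exons of Kcnd3 overlap the opposite-strand gene Kcnd3os, and those of Ckap5 and Plxnc1 overlap Snord67 and Gm48718 on the same strand.

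How many rises and falls kept their call depended on the setting. All 11 rises and 16 of 17 falls passed with DESeq2, 11 and 15 without day 2 replicate 2, and 10 and 14 with central glia content as a covariate. Without both muscle-rich libraries none of the 11 passed, while 9 of the 17 falls did (among them Cacng2, Gabra2, Ppig, Esf1, Zfp40, Nexn and Cep290). Under the correction for GC content and length 3 rises passed (Mrgprd at 0.54, Htr4 at 0.52 and Magi3 at 0.31 on the log2 scale), and Scn11a, at 0.37, did not (adjusted p = 0.122). Leaving out day 6 replicate 2 or day 2 replicate 1 lost all 11 rises. Among the falls, the calls of Ppig and Zfp40 held under 14 of 17 alternatives, and those of Ctss and Hmgn5 under 13. Those of Smc4 and Zfp942 held under 12, and those of Nexn and Rtbdn under 11. Among the rises, the calls of Magi3, Ckap5 and Myt1 held under 10, 9 and 8.

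Gene length moved with the comparison. The transcripts of all 11 rises were longer than the median of tested genes, with a median of 5899 bases against 3128 bases. Over all genes the median log2 change ran from -0.038 in the decile with the shortest transcripts to 0.17 in the decile with the longest, in which 518 genes were higher and 51 lower at an unadjusted p under 0.05. By GC content it ran from 0.044 in the lowest decile to -0.079 in the highest. The libraries did not divide by day in this respect. In the decile with the longest transcripts, the median level relative to each gene's mean was -0.17, 0.0026 and -0.091 in day 2 replicates 1 to 3 and 0.17, 0.18 and -0.10 in day 6 replicates 1 to 3, so day 6 replicate 3 lay beside the day 2 libraries. In males the same decile had a median change of -0.046. Beyond the corrected values above, the part of transcript length in the rises was not tested.

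**Figure D3:**
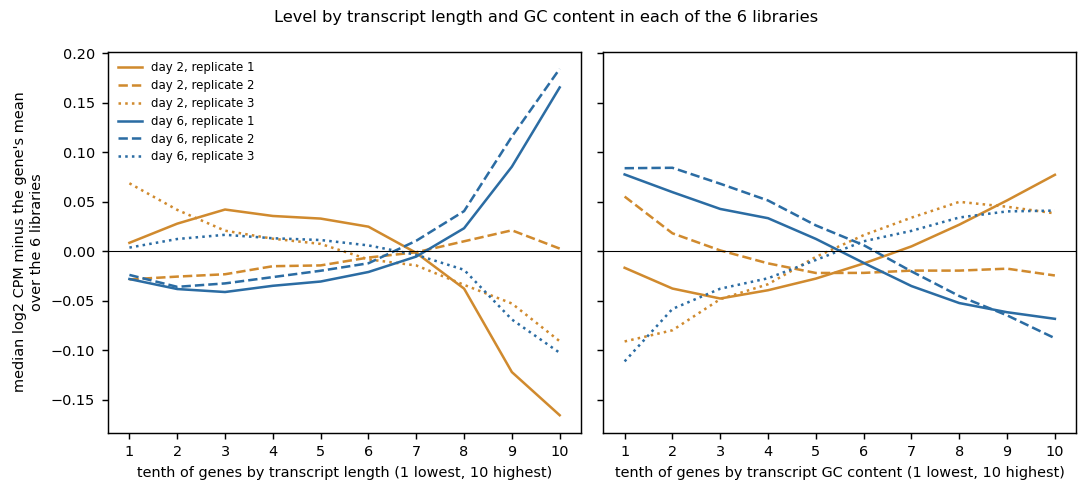
Median level in each of the 6 libraries, as log2 CPM minus the gene's mean over the 6, by deciles of genes in order of transcript length (left) and GC content (right), with 1 line per library. At the longest transcripts day 6 replicates 1 and 2 lie at 0.17 and 0.18 while day 6 replicate 3 lies at -0.10, among the day 2 libraries.

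Vehicle libraries give a level of each gene without paclitaxel, but by their reads they appear to belong to another library set. The share of uniquely placed reads that touched several genes at once was 0.28% to 0.30% here against 0.71% to 0.75% in vehicle and male libraries, so a difference from vehicle cannot be told apart from a difference between library sets. For all 11 rises the vehicle mean was above the day 2 mean, and for 10 of them, all but Vps8, every vehicle library was above every day 2 library, as in 27.9% of all genes tested. Scn11a measured 568, 496 and 591 CPM in vehicle, overlapping its day 6 values, and Mrgprd measured 146, 138 and 153 CPM. For 16 of the 17 falls, all but Camk2b, every vehicle library was above every day 6 library, as in 24.4% of all genes tested. The rises were chosen for low day 2 values and the falls for low day 6 values, so nothing is read from either count. Cacng2, at 18.6, 17.7 and 17.0 CPM in vehicle, lay within its day 2 range. The summed level of keratinocyte genes differed too, at 262 to 370 CPM in the 6 libraries and 63.1 to 73.6 CPM in vehicle. In treated males it was 59.9 to 65.3 CPM on day 2 and 75.4 to 101.7 CPM on day 6. Tissue content and library set cannot be told apart in this difference.

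No gene passed in treated males. Among them 0 of 15577 genes passed between day 2 and day 6 with edgeR (0%), 920 had an unadjusted p under 0.05 (5.91%, 2.41% higher and 3.49% lower), and DESeq2 called 23 (0.148%). Of the 28 genes, 11 changed in the same direction in males (8 rises and 3 falls), their male log2 changes lay between -0.25 and 0.15, and in males none of the 28 had an unadjusted p under 0.05. Cacng2 measured 20.3, 16.9 and 16.0 CPM on day 2 and 19.0, 19.4 and 19.1 CPM on day 6 in males, a log2 change of 0.11 ± 0.12. Scn11a changed by 0.08 ± 0.092 there.

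The difference between the sexes in the change was tested directly. No gene passed (0 of 15577), with 1536 at an unadjusted p under 0.05 (9.86%, 6.64% higher in females and 3.22% lower) and 23 called by DESeq2. All 28 genes had an unadjusted p under 0.05 for this difference, with adjusted p from 0.0950 to 0.439. Since these 28 were chosen for their female change, that count is given as a description. The lowest adjusted p was that of Cacng2, whose female change was lower than its male change by -1.22 ± 0.18 on the log2 scale. By the share of reads that touched several genes, treated males and females also appear to come from different library sets. The effects of sex and set cannot be told apart in this difference. Leaving out day 6 replicate 3 raised the count to 432, of which 366 were higher in females.

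**Figure D4:**
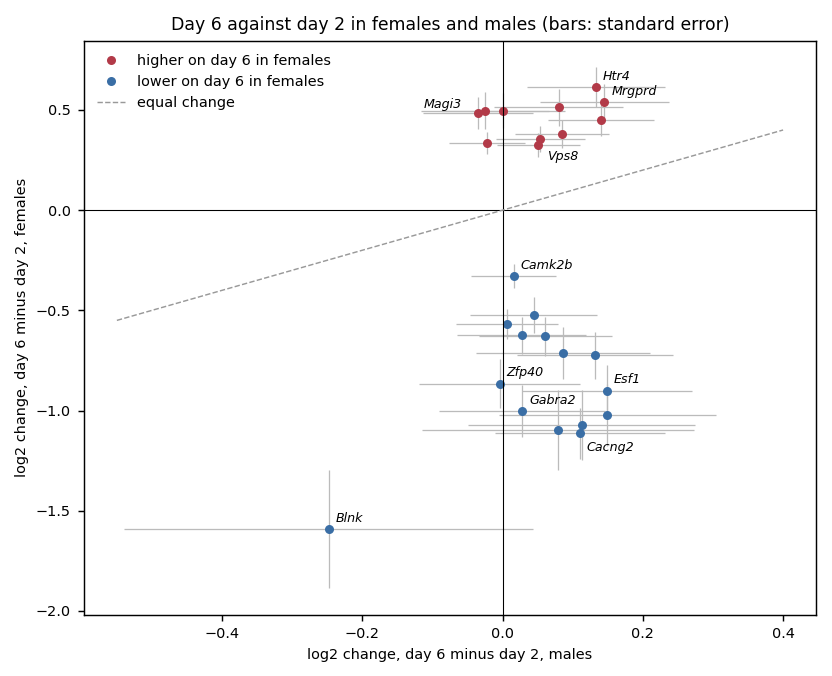
Log2 change from day 2 to day 6 in males (horizontal) and females (vertical) for 26 of the 28 genes that passed in females, with standard errors as bars and equal change as a dashed line. Male changes lie between -0.25 and 0.15, while female changes lie between 0.32 and 0.62 or between -0.33 and -1.59.

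Beyond single genes, lists of related genes were counted. At an unadjusted p under 0.05, 8.53% of all genes were higher on day 6 and 4.79% lower, and these are the shares against which each list is read. They cover genes of all lengths. Of the 1541 genes with the longest transcripts, 518 were higher and 51 lower, so lists of long genes have no matched share here. A gene that met only this unadjusted p did not pass the test and is given by its values. Of the 28 genes that passed, 9 belong to at least 1 of the 47 lists.

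Markers of pain and touch neurons lay mostly on the day 6 side. Among 37 markers of nociceptor and touch receptor classes, Mrgprd and Plxnc1 passed, 12 were higher and none lower at an unadjusted p under 0.05, and the median log2 change was 0.15 (0.098 in males). Below the threshold, the itch receptor gene Il31ra measured 13.7, 19.8 and 13.9 CPM on day 2 and 22.7, 25.9 and 27.3 CPM on day 6 (adjusted p = 0.0951). Mrgprb4, a receptor of neurons that respond to stroking, was 3.05, 5.22 and 2.00 CPM and then 7.04, 7.06 and 6.25 CPM (adjusted p = 0.187). Neither gene overlapped between days. Ret, the receptor of the GDNF family, was 779, 812 and 665 CPM and then 828, 850 and 982 CPM. Without both muscle-rich libraries 6 markers were higher, none lower and none passed. Without day 6 replicate 3, where 951 of all genes passed, 9 markers were higher, 1 was lower and 6 passed, with a median of 0.048. With the correction for GC content and length 10 were higher, 2 lower and 1 passed, with a median of 0.14.

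Of 12 sodium channel genes, Scn11a passed and 4 were higher with none lower at an unadjusted p under 0.05. Their median log2 change was 0.079. With the correction for GC content and length 2 were higher, none passed and the median was -0.022. Without both muscle-rich libraries 2 were higher and none passed. Scn10a, the nociceptor channel Nav1.8, had 618, 855 and 787 CPM on day 2 and 983, 1031 and 1075 CPM on day 6, separated but not called (0.45 ± 0.095, adjusted p = 0.0943). Scn9a, the channel Nav1.7, overlapped between days at 156 to 193 CPM and 169 to 210 CPM. Among 31 potassium and HCN channels Kcnd3 passed, 7 were higher and 2 lower. Kcnk18, the background channel TRESK that damps excitability, was 6.69, 8.78 and 9.92 CPM and then 11.3, 13.04 and 12.3 CPM (adjusted p = 0.180). Of 16 calcium channel genes 2 were higher and 1, Cacng2, lower. Cacna1b, the N-type channel of transmitter release, went from 53.7, 72.9 and 78.9 CPM to 126, 127 and 90.7 CPM without passing (adjusted p = 0.0799), with day 6 replicate 3 again nearest to day 2.

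TRP and other transduction channels gave 6 of 20 higher and 2 lower, with no call. Fam38b, the older symbol of the touch channel Piezo2, was 270, 314 and 298 CPM and then 406, 423 and 344 CPM (adjusted p = 0.0615). Trpa1, a channel opened by irritants, was 32.9, 41.9 and 31.2 CPM and then 42.5, 50.8 and 44.8 CPM (adjusted p = 0.207). The groups did not overlap in either gene. Trpv1, the capsaicin receptor, overlapped, with 130, 96.4 and 109 CPM on day 2 and 95.0, 101 and 102 CPM on day 6.

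Synaptic genes lay on both sides, and those that passed were lower. Of 34 synaptic and vesicle genes, 2 passed, Gabra2 among them, 9 were lower and 6 higher at an unadjusted p under 0.05, and the median was -0.062 (0.099 in males). Syt1, the calcium sensor of vesicle release, was 171, 183 and 158 CPM and then 215, 208 and 215 CPM (adjusted p = 0.0943). Sv2a, a vesicle protein, was 82.8, 96.0 and 88.8 CPM and then 70.3, 64.3 and 81.5 CPM (adjusted p = 0.206). Neither overlapped between days, and they lay on opposite sides. Sv2c had the largest log2 change of those named from this list, 2.26 ± 0.71, but its values of 5.92, 21.8 and 25.2 CPM and then 112, 125 and 17.0 CPM overlapped, since day 6 replicate 3 lay with day 2.

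None of the listed axonal motor, tubulin or neurofilament genes passed. Of 29 motor and microtubule regulator genes 9 were higher and none lower at an unadjusted p under 0.05, with a median of 0.065. Only 1 of the 29 was higher in every day 6 library than in every day 2 library, as were 5.35% of all genes. Without day 6 replicate 3, where 951 of all genes passed, 10 were higher and 5 lower, with a median of 0.012. In that setting 6 of the 29 passed, all higher. Kif5c, a kinesin heavy chain of neurons, measured 500, 584 and 502 CPM and then 821, 817 and 545 CPM (adjusted p = 0.182), overlapping in day 6 replicate 3. Kif1b, a kinesin that carries mitochondria and vesicle precursors, was 831, 937 and 920 CPM and then 1242, 1314 and 896 CPM. None of 15 tubulin genes reached an unadjusted p under 0.05, and Tubb3, the neuronal beta-tubulin, stayed between 1855 and 2091 CPM over the 6 libraries. Among neurofilaments, Nefh was 3109, 3105 and 3340 CPM and then 2974, 2929 and 2971 CPM (-0.11 ± 0.045, adjusted p = 0.323).

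No marker of nerve injury passed either. Of 28 injury and regeneration genes 2 were higher and 3 lower at an unadjusted p under 0.05. Atf3, a transcription factor switched on in injured sensory neurons, measured 12.0, 11.6 and 12.2 CPM and then 10.3, 8.60 and 9.76 CPM, all lower on day 6 but not called (adjusted p = 0.444). Sox11 and Gap43, genes of axon growth, overlapped between days at 6.72 to 8.41 CPM for the first and 173 to 182 CPM for the second. The growth-related gene Klf7 was 19.4, 25.6 and 25.9 CPM and then 47.4, 49.9 and 26.1 CPM (adjusted p = 0.220), and its exons overlap the opposite-strand gene Gm26649. The pain peptides Calca (756 to 804 CPM, then 720 to 775 CPM) and Tac1 (147 to 170 CPM, then 139 to 156 CPM) overlapped. The galanin gene Gal measured 11.4, 7.24 and 11.02 CPM and then 8.26, 7.31 and 7.29 CPM.

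**Figure D5:**
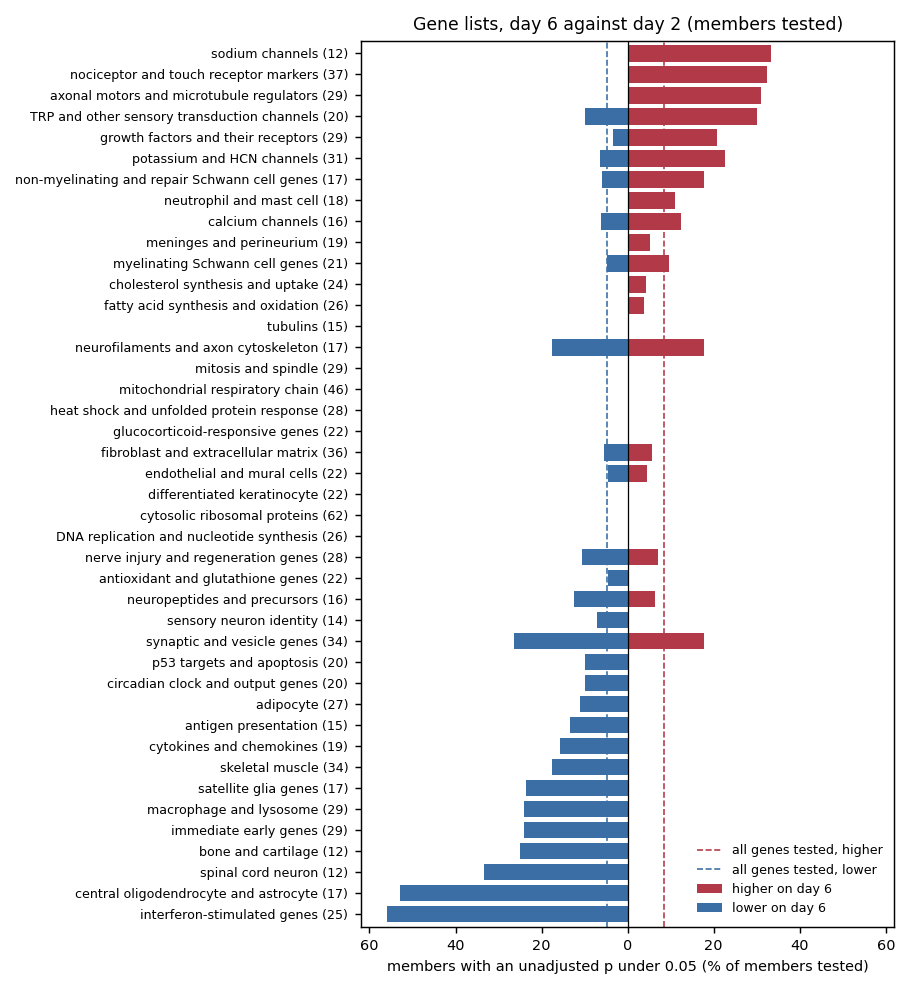
Share of the tested members of each gene list with an unadjusted p under 0.05, higher on day 6 (right) or lower (left), with the same shares over all genes tested as dashed lines at 8.53% and 4.79%. Sodium channels, nociceptor markers and axonal motors have bars mainly to the right, and interferon-stimulated genes and central glia genes have bars only to the left.

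Interferon-stimulated genes, which cells switch on against viruses, had more members lower at an unadjusted p under 0.05 than any other list. All 25 tested members had a log2 change below 0, 14 of them at an unadjusted p under 0.05, with a median of -0.76 (-0.18 in males) and no call. Their summed level was 870, 1090 and 429 CPM on day 2 and 518, 543 and 646 CPM on day 6, so day 2 replicates 1 and 2 lay above, and day 2 replicate 3 below, every day 6 library. Usp18, which limits interferon signalling, was 7.72, 16.5 and 3.04 CPM and then 3.52, 2.92 and 4.24 CPM, and Isg15, a ubiquitin-like modifier, was 19.3, 30.2 and 5.93 CPM and then 8.46, 7.01 and 9.25 CPM. In both, day 2 replicates 1 and 2 lay above every day 6 library and day 2 replicate 3 did not. Without day 2 replicate 3, 24 members were lower at an unadjusted p under 0.05 and 14 passed with a median of -1.08. Without day 2 replicate 2, 2 were lower, 1 was higher and the median was -0.38. Vehicle sums of 675 to 742 CPM lay above every day 6 library and below day 2 replicates 1 and 2. Day 2 replicate 2, the highest, is also the library with the central glia signal, and with the central glia sum as a covariate 6 members were lower with a median of -0.45. Of 15 antigen presentation genes 14 had a change below 0 and 2 an unadjusted p under 0.05. H2-K1, a class I molecule, was likewise highest in day 2 replicates 1 and 2, at 192, 177 and 126 CPM on day 2 and 119, 122 and 142 CPM on day 6.

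Macrophage genes lay mostly on the day 2 side as well. Of 29 macrophage and lysosome genes Ctss passed, 7 were lower and none higher at an unadjusted p under 0.05, and the median was -0.12 (-0.11 in males). The complement genes C1qa, C1qb and C1qc had log2 changes of -0.41 ± 0.11, -0.38 ± 0.11 and -0.43 ± 0.14, with adjusted p of 0.182, 0.187 and 0.227. For C1qa the values were 31.6, 25.9 and 31.4 CPM on day 2 and 23.7, 21.7 and 21.2 CPM on day 6, without overlap. Cd68 overlapped, at 4.15 to 4.39 CPM and 3.05 to 4.79 CPM. Of 19 cytokine and chemokine genes tested of 28 in the files, 3 were lower and none higher, and Ccl2 and Il1b overlapped at low levels.

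Of 17 satellite glia genes 1 passed, 4 were lower and none higher at an unadjusted p under 0.05, with a median of -0.11. Without day 2 replicate 2, the library with the central glia signal, 3 were lower and 2 higher, with a median of -0.012. With the central glia sum as a covariate the median was -0.047. Atp1b2, a sodium pump subunit of glia, was 123, 162 and 113 CPM and then 86.2, 103 and 110 CPM (adjusted p = 0.181). Myelinating Schwann cell genes centred near 0, with 2 of 21 higher, 1 lower and a median of -0.008, and Mbp measured 6424, 7504 and 6373 CPM and then 6615, 6949 and 6281 CPM. Of 17 central oligodendrocyte and astrocyte genes tested 9 were lower, with a median of -0.70, and without day 2 replicate 2 the median was 0.027 with 2 lower and 1 higher. In skeletal muscle all 34 genes had a log2 change below 0 and 6 were lower at an unadjusted p under 0.05, among them the slow-fibre myosin Myh7 at 1.72, 3.15 and 205 CPM and then 0.34, 0.74 and 0.46 CPM.

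No immediate early gene, the first to answer a stimulus, passed. Of 29, 7 were lower and none higher at an unadjusted p under 0.05, with a median of -0.17 (-0.024 in males). Zfp36, which destabilizes inflammatory mRNAs, was 13.9, 11.6 and 18.8 CPM and then 11.5, 9.78 and 10.8 CPM (adjusted p = 0.227). Arc, a gene of synaptic plasticity, was 4.98, 6.46 and 4.46 CPM and then 3.37, 4.45 and 3.60 CPM. Without both muscle-rich libraries 2 members were lower, 1 was higher and the median was -0.074. With the correction for GC content and length 3 were lower and the median was -0.10.

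Core metabolism and stress programs gave no call. None of 46 respiratory chain genes, 62 cytosolic ribosomal protein genes, 28 heat shock and unfolded protein response genes, 29 mitosis genes or 26 DNA replication genes reached an unadjusted p under 0.05. Their medians ran from -0.063 in the respiratory chain to 0.013 in the heat shock list, beside -0.0016 over all genes. Of 24 cholesterol genes 1 was higher. Per1, Arntl and Dbp, genes of the circadian clock, overlapped between days, at 46.0, 32.2 and 59.7 CPM and then 36.8, 34.2 and 38.7 CPM for Dbp. Fkbp5, a glucocorticoid-responsive gene, was 72.0, 51.1 and 91.9 CPM and then 65.0, 65.5 and 76.1 CPM. Growth factors and their receptors gave 6 of 29 higher and 1 lower, with a median of 0.06. Il6st, the shared signalling subunit of receptors of the interleukin-6 family, was 250, 333 and 309 CPM and then 481, 496 and 348 CPM (adjusted p = 0.170), without overlap. Hmgcs1, an enzyme of cholesterol synthesis, was listed at 0 reads in all 6 libraries.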

How the data were processed

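RNA-seq of mouse dorsal root ganglia was used as the counts of reads per gene that the authors deposited, 1 file per library. Per the labels' protocols, about 500 ng of total RNA went into a stranded mRNA kit with oligo-dT selection and 50-base single-end sequencing. Per the submitters' processing notes the tools were bcl2fastq, TopHat2 and HTSeq with the mm9 build. Their versions, the annotation and the strand setting are not given in the sources used here. The 5 summary lines of each file, which name no gene, entered neither library sizes nor tests. Reads that fell in no gene were 14.97% to 16.31% of those placed uniquely in the 6 libraries.

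The main test was edgeR 4.0.16 (R 4.3.3), a quasi-likelihood fit with TMM scaling and filterByExpr on all 15 ganglion libraries in 5 groups of 3, which share 1 estimate of spread. P-values were adjusted by Benjamini-Hochberg over 15577 genes, with a threshold of 0.05. Standard errors are the log2 change divided by the root of F. The female change minus the male change was a contrast of the same fit. DESeq2 1.42.0 and the other alternatives are given at the end. The script was tested on simulated data. Replicates differed by more than sampling noise (chi-square per degree of freedom 13.1 to 42.2 in the 6 libraries). In the vehicle and male ganglion libraries it was only 4.83 to 9.16. The shared estimate of spread, and with it the standard errors and p-values, may therefore be too small for the 6 libraries. Transcript length and composition came from GENCODE vM21 on GRCm38, matched by symbol for 98.89% of genes tested, and no mm9 coordinate is printed.

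The libraries compared, the gene lists and the rule for named genes were chosen with earlier results of these data known. Named were called genes with the largest change or smallest p (up to 12 each way), up to 5 members of each list by smallest p, the 8 smallest p in the sex difference, and 30 set genes. Camk2b, Eif5b and Blnk, called genes outside that rule, were added after their values were seen. Some results are not reported here, including single genes among the 28.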

Additional observations from a re-analysis of the deposited data

How the results depend on the processing

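All 28 genes that passed kept their direction under the 17 alternatives, while the number of genes passing moved. The 28 were chosen for their change in these libraries, so nothing is read from the kept direction. RLE size factors gave 28 genes (26 shared), no low-count filter 28 (26 shared), muscle content as a covariate 24 (23 shared), fat content 19 (5 higher) and central glia content 36 (20 higher). DESeq2 gave 232, with 157 higher and 75 lower. All 3 content covariates together gave 7, with 3 higher and 4 lower. A fit on the 6 libraries alone gave 0, with 0 higher and 0 lower. Among alternatives chosen after seeing the data, offsets for GC content and length gave 46, with 6 higher and 40 lower, and leaving out both muscle-rich libraries gave 10, with 0 higher and 10 lower. Leaving out 1 library at a time gave 4 to 951 genes, 0 to 744 higher and 4 to 207 lower; the extremes are day 6 replicates 2 and 3. The cause was not tested.

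The difference between the sexes had 0 genes. It had 23 with DESeq2 (4 higher in females, 19 lower), 8 with GC and length offsets, 4 without both muscle-rich libraries, 2 with muscle content, 2 with no filter, 1 with fat content and 1 with all 3 covariates, all lower except as stated. Leaving out 1 library gave 0 to 432, with 0 to 366 higher and 0 to 66 lower.

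With the replicate number as a block, 11 genes passed (1 higher, 10 lower), all among the 28, and 0 for the sex difference. Same-numbered libraries correlated at 0.21, -0.279 and -0.196 in their deviations from group means, and not every library correlated best with its own number, so the numbers were not treated as pairs.

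Of the values for named genes under these alternatives, 1574 kept their direction and side of the threshold, 183 no longer passed, 66 newly passed and 73 moved; of list medians 720 moved by less than the replicate SD and 79 by more. With 3 libraries a group and 19049166 to 23761469 reads each, the median standard error was 0.104 on the log2 scale. Changes of the size of that error were not detectable, and the smallest change called was 0.32. In the simulated data, which used the shared spread, 44% of changes of 0.5 and 88% of changes of 1 passed. There 9 unchanged genes passed too. A gene without a call may therefore have changed by such amounts.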
